A study of Aspergillus niger with 27 samples.

Results

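Within a single colony of the filamentous fungus Aspergillus niger, mycelium lying over wheat bran was sampled at 3 neighbouring places, compartments 7, 8 and 9 of a divided culture dish. The wheat bran section gave 9 of the 27 libraries of the series, chosen by their labelled substrate and compartment, with 1 library from each of plates A, B and C per compartment. Each plate carried 1 colony that also covered glucose (compartments 1 to 3) and sugar beet pulp (compartments 4 to 6). All groups share the same species, liquid medium without agar and total RNA from whole mycelium, and no age, mutation or added drug is labelled. The strain is not stated in the labels. Each colony grew outward from the centre of its plate on a perforated membrane, which let proteins and metabolites through to the liquid but held hyphae back, and the liquid compartments were separate from each other. Per the labels, growth was uneven because substrates differed in radial growth, and how old the mycelium of a compartment was is not given. In every section 1 compartment had its own substrate on both sides and the others bordered a different substrate on 1 side, but the labels do not say which number held which place. The colony is the replicate here, with n = 3 plates throughout.

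Wheat bran is a cereal residue whose main polysaccharides are arabinoxylan and starch. A. niger lives on such material by secreting enzymes that cut these polymers, then taking up and metabolising the released sugars. Filamentous fungi are syncytial: cytoplasm can pass along the hyphae through septal pores, so neighbouring parts of a colony are physically connected. Easily used sugars such as glucose repress many genes for plant polymer degradation, a mechanism known as carbon catabolite repression. The deposited table gives each gene an NRRL3 number, and 0 of its 11846 IDs occur in the available reference table, so no gene below carries a name or a known role. As a bulk measurement, a lower value can mean fewer hyphal cells that express a gene or less RNA per cell, and these cannot be told apart.

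The compartment 9 libraries differed from the other wheat bran libraries as libraries. They held 11847598, 8006891 and 8841735 counts on plates A, B and C, against 15433095 to 24501824 in compartments 7 and 8. Their 20 genes with the most counts took 42.9%, 35.1% and 42.0% of the counts, against 24.9% to 29.0% in compartments 7 and 8 and 14.7% to 40.1% in the 18 libraries on the other substrates. Their TMM factors, which rescale library sizes for such differences in composition, were 0.538, 0.651 and 0.462, below the 0.729 to 1.02 of compartments 7 and 8 and the 0.751 to 1.56 on the other substrates. After all libraries were thinned to 8006891 counts, 7930 to 8674 genes had 10 or more counts in compartment 9, against 9085 to 9605 in compartments 7 and 8. These measures move with compartment 9 on every plate. With thinned libraries, 4125 genes differed between compartments 9 and 7, of which 3953 were among the 4333 called with the counts as deposited.

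On every plate compartments 7 and 8 lay closer to each other than either lay to compartment 9. The distance between libraries was taken as the root mean square difference in log2 CPM (counts per 1e6 counts, TMM-scaled) over the 10990 genes tested. Compartments 7 and 8 of the same plate were 0.578, 0.545 and 0.904 apart on plates A, B and C. Compartments 8 and 9 were 1.30, 0.905 and 1.18 apart, and compartments 7 and 9 were 1.35, 1.13 and 1.67 apart. On each plate the order of the distances was the same. Libraries of the same compartment on different plates were 0.637 to 0.886 apart in compartment 7, 0.590 to 1.03 in compartment 8 and 0.888 to 1.14 in compartment 9. The distances from 7 to 8 on plates A and B thus lay below all of these ranges. On plate C the distance from 7 to 8 lay above the range of compartment 7 and inside those of 8 and 9. On plates A and C the distances from 9 to 7 and from 9 to 8 lay above all of these ranges. On plate B both lay inside the range of compartment 9. With 3 plates a paired exact test cannot go below p = 0.25, so the order is given as a description.

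**Figure D1:**
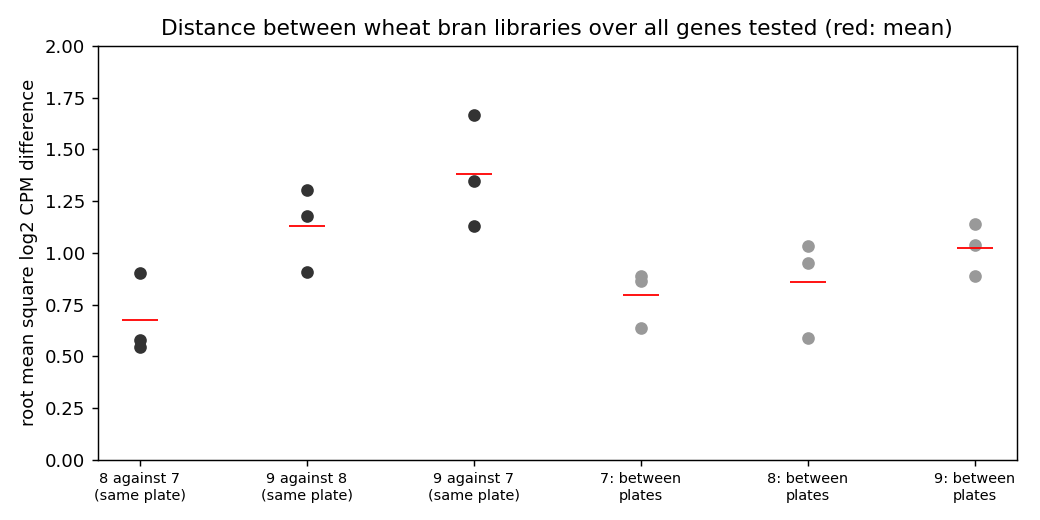
Root mean square log2 CPM difference between pairs of wheat bran libraries over the 10990 genes tested; dark points are pairs of compartments on the same plate, grey points are pairs of plates within a compartment, and red bars are means. Pairs of compartments 7 and 8 have a mean of 0.676, pairs of 8 and 9 a mean of 1.13 and pairs of 7 and 9 a mean of 1.38.

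Between compartments 9 and 7, which ask whether the same substrate gives the same expression in a different place, widespread differences were found. Of 10990 genes, 4333 passed an adjusted p of 0.05 in the edgeR quasi-likelihood test with plate as a block, which is 39.4% of those tested. Compartment 9 was higher in 2006 genes (18.3%) and lower in 2327 (21.2%). The median log2 fold change was 1.46 among the higher genes and -1.61 among the lower genes. Changes of 2-fold or more were found in 1670 of the higher and 2026 of the lower genes, and changes of 8-fold or more in 64 and 129. When only library size was used for scaling, the median of all genes moved from -0.06 to -0.84 and the calls became 638 higher and 4253 lower, so the balance of directions rests on the scaling. Without plate C, 363 genes were higher and 597 lower, and all 960 were among the 4333.

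**Figure D2:**
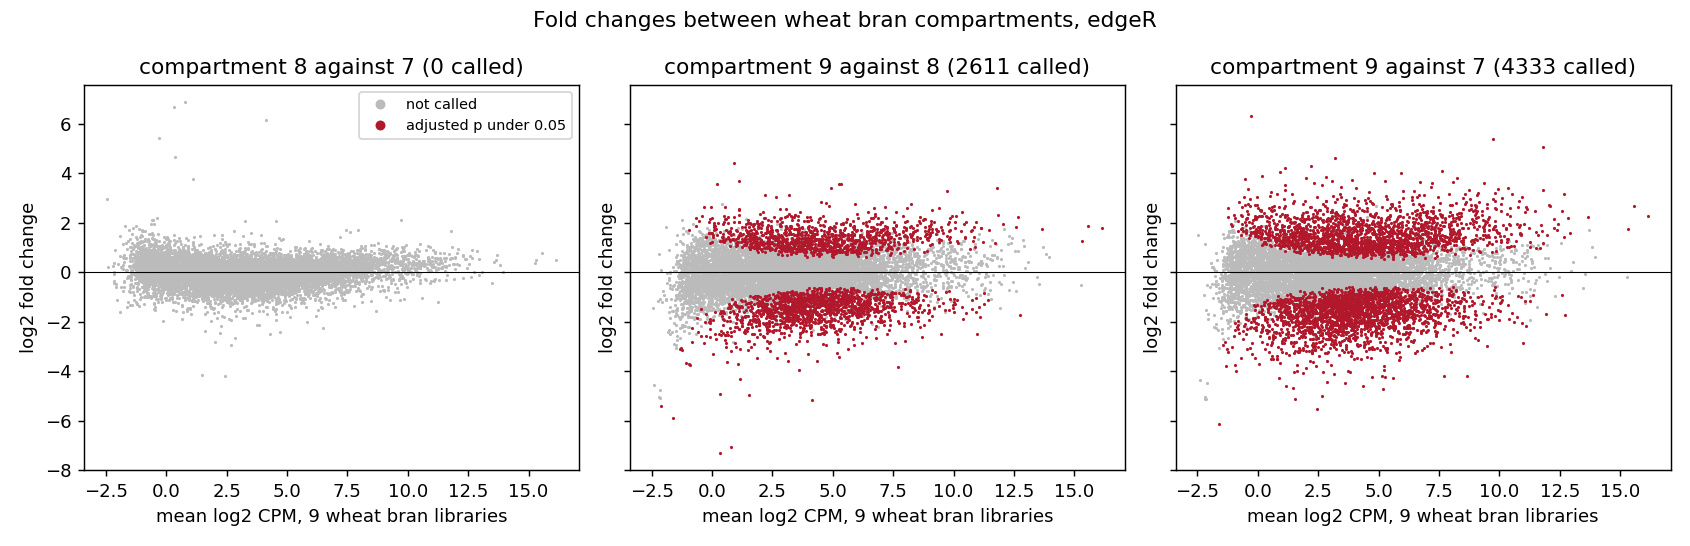
Log2 fold change of each of 10990 genes against its mean log2 CPM in the 9 wheat bran libraries, for the 3 pairs of wheat bran compartments; red points passed an adjusted p of 0.05. No gene passed from 7 to 8, while 2611 passed from 8 to 9 and 4333 from 7 to 9, on both sides of 0.

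Genes with high counts leaned towards compartment 9. Where the mean log2 CPM reached 8, 37.4% of 607 genes were higher and 17.0% lower in compartment 9 than in 7. Where it was 2 to 4, 15.9% of 3299 genes were higher and 25.3% lower. This mean covers all 9 wheat bran libraries, so a gene that rises in compartment 9 also moves up in it. Such a lean is thus favoured by the grouping and is a description only. The 2006 higher genes together took 60.8%, 62.0% and 65.4% of all counts in compartment 9 on plates A, B and C. The same genes took 25.4%, 33.6% and 22.0% in compartment 7 and 26.5%, 42.3% and 36.4% in compartment 8. The 2327 lower genes took 4.06% to 5.20% in compartment 9 and 18.8% to 27.4% in compartment 7. Compartments 7 and 9 were used to choose these genes, so their shares describe the lists and test nothing.

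Genes are named where the call held in the full fit and without each plate in turn, with the same direction on all 3 plates and a mean of at least 4 on the log2 CPM scale. Between compartments 9 and 7, 179 higher and 322 lower genes met this rule, and the pair with the largest fold change in each direction is described. NRRL3_1765 stood at 649, 1204 and 614 CPM in compartment 7 of plates A, B and C. It stood at 1948, 3784 and 2109 CPM in compartment 8 and at 28152, 17012 and 26217 CPM in compartment 9. All compartment 9 values lay above all values in 7 and 8, with a log2 fold change of 5.07 from 7 to 9 (SE 0.81, edgeR adjusted p = 8.1e-05). This gene was also at 1542 to 35452 CPM in the 9 glucose libraries and, on sugar beet pulp, at 594 to 11726 CPM in compartment 4, 399 to 1632 CPM in compartment 5 and 215 to 437.8 CPM in compartment 6.

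NRRL3_6303 stood at 34.8, 124 and 39.6 CPM in compartment 7, at 38.4, 374 and 252 CPM in compartment 8 and at 449, 872 and 1825 CPM in compartment 9. The compartment 9 values again lay above all others of the section, while plate A showed almost no step from 7 to 8. The log2 fold change from 7 to 9 was 4.09 (SE 0.69, edgeR adjusted p = 1.2e-04). In the 18 libraries on the other substrates it ranged from 5.66 to 134 CPM, below every compartment 9 library.

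NRRL3_10559 went the other way, with 105, 94.3 and 299.9 CPM in compartment 7, 33.7, 48.4 and 100.2 CPM in compartment 8 and 3.61, 6.52 and 8.82 CPM in compartment 9. Its groups 7 and 9 did not overlap, and the log2 fold change was -4.71 (SE 0.68, edgeR adjusted p = 2.7e-05). On sugar beet pulp it stood at 170.2 to 486 CPM, and on glucose at 19.3 to 203 CPM.

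NRRL3_5487 stood at 91.6, 41.5 and 108 CPM in compartment 7, at 65.0, 21.8 and 29.9 CPM in compartment 8 and at 2.67, 3.45 and 3.43 CPM in compartment 9. The low values in compartment 9 rest on 17, 18 and 14 counts. The log2 fold change was -4.60 from 7 to 9 (SE 0.53, edgeR adjusted p = 3.1e-06) and -3.57 from 8 to 9 (SE 0.51, adjusted p = 7.7e-05). Elsewhere in the colony it stood at 33.0 to 186 CPM, above every compartment 9 library.

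**Figure D3:**
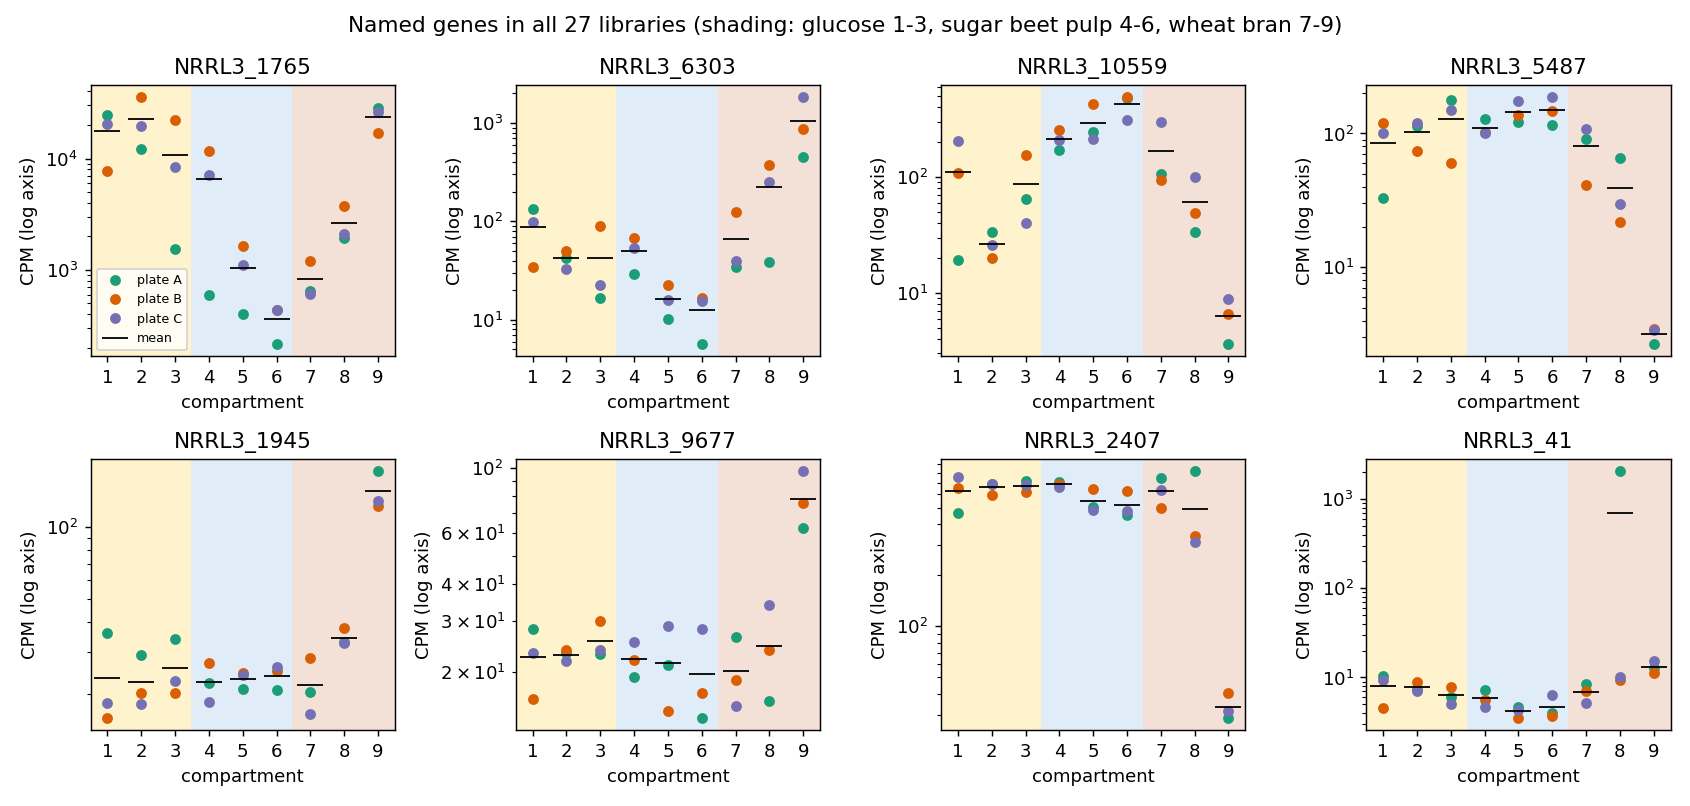
CPM on a log axis of 8 genes in each of the 9 compartments, with points for plates A, B and C and a bar for their mean; shading marks glucose (1 to 3), sugar beet pulp (4 to 6) and wheat bran (7 to 9). NRRL3_2407 stays at 312 to 820 CPM in 24 libraries and at 28.9 to 40.3 CPM in compartment 9, while NRRL3_41 is at 2064 CPM in 1 library and at most 15.2 CPM in the other 26.

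Between compartments 9 and 8, 2611 of 10990 genes passed the edgeR test (23.8%), with 1192 higher (10.8%) and 1419 lower (12.9%) in compartment 9. Changes of 8-fold or more were found in 11 higher and 36 lower genes. Some of these rest on a single library. The lower genes include NRRL3_37, NRRL3_43, NRRL3_41 and NRRL3_39, with log2 fold changes of -7.30, -7.09, -5.18 and -4.92. They were high in compartment 8 of plate A alone, as described below. The higher genes include NRRL3_59, at 3.57, with 711 CPM in compartment 9 of plate A and at most 72.5 CPM in any other library. Both comparisons use the same compartment 9 libraries, so they do not support each other. The call count was 1116 without plate A, 155 without plate C and 1659 without the compartment 9 library of plate C alone. Without plate C, 11 genes were higher and 144 lower. When only library size was used, the calls became 302 higher and 2625 lower and the median of all genes was -0.61, against -0.02 with TMM. The naming rule left 2 higher and 83 lower genes.

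NRRL3_2407 had the largest fold change of the 83 lower genes that met the naming rule. Called genes outside the rule fell further, such as NRRL3_9510 at -4.98, whose mean log2 CPM in the section was 1.55. NRRL3_2407 stood at 820, 342 and 312 CPM in compartment 8 of plates A, B and C and at 28.9, 40.3 and 31.6 CPM in compartment 9. In compartment 7 it stood at 751, 494 and 633 CPM, and in the 18 glucose and sugar beet pulp libraries at 451 to 756 CPM. Its level was thus similar over the rest of the colony, and the 3 compartment 9 libraries stood alone. The log2 fold change from 8 to 9 was -3.85 (SE 0.36, edgeR adjusted p = 1.7e-06) and from 7 to 8 it was -0.37 (SE 0.32, adjusted p = 0.84).

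NRRL3_1945 and NRRL3_9677 were the higher genes. NRRL3_1945 stood at 33.2, 37.7 and 32.6 CPM in compartment 8 and at 172, 122 and 129 CPM in compartment 9, a log2 fold change of 2.02 (SE 0.29, edgeR adjusted p = 7.7e-05). In the other 21 libraries it stood at 15.9 to 36.0 CPM. NRRL3_9677 stood at 15.9, 23.9 and 33.9 CPM in compartment 8 and at 62.2, 75.7 and 97.5 CPM in compartment 9, a log2 fold change of 1.69 (SE 0.31, edgeR adjusted p = 7.5e-04). In the remaining libraries it stood at 13.9 to 29.9 CPM. Both genes were therefore higher in every compartment 9 library than in any of the other 24 libraries of the colony.

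Between compartments 8 and 7, no gene passed the edgeR test (0 of 10990, 0%), with 620 genes at an unadjusted p under 0.05, of which 190 were higher and 430 lower in compartment 8. DESeq2 called 12 genes, 8 higher and 4 lower, and limma-voom called 0. The smallest adjusted p of the edgeR test was 0.42. A missed threshold does not show that the compartments are alike. By the naming rule for a comparison without calls, the leading genes are given as values only. NRRL3_6806 stood at 10.9, 13.5 and 1.79 CPM in compartment 7 and at 59.5, 27.5 and 21.5 CPM in compartment 8 (log2 fold change 2.05, SE 0.82, adjusted p = 0.81). NRRL3_8805 stood at 62.9, 18.7 and 198 CPM in compartment 7 and at 25.4, 8.93 and 16.8 CPM in compartment 8 (log2 fold change -2.52, SE 0.83, adjusted p = 0.81). NRRL3_728 stood at 166, 25.3 and 264 CPM in compartment 7 and at 61.5, 9.55 and 25.1 CPM in compartment 8 (log2 fold change -2.44, SE 0.69, adjusted p = 0.81). The groups of the latter 2 genes overlap, and those of NRRL3_6806 do not.

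The fourth of these genes, NRRL3_41, was high in 1 library alone. It stood at 2064 CPM in compartment 8 of plate A, from 30997 counts, and at 9.47 and 10.02 CPM in compartment 8 of plates B and C. All other libraries of the series held 3.52 to 15.2 CPM. Its log2 fold change from 7 to 8 was 6.15 with all plates (SE 1.24, edgeR adjusted p = 0.42) and 0.67 without plate A (adjusted p = 0.46). The DESeq2 value of 6.17 passed, at an adjusted p of 1.0e-05, and rests on that same library.

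Genes with neighbouring ID numbers were high in the same library. The following genes were picked after their values were seen, as those at 8 times or more the level of each of the other 26 libraries with 50 or more counts. In compartment 8 of plate A, 6 genes met this, and 4 of them were NRRL3_37, NRRL3_39, NRRL3_41 and NRRL3_43. NRRL3_37 stood at 435 CPM there and at most 1.34 CPM elsewhere. NRRL3_39 stood at 77.7 CPM and at most 1.45 CPM elsewhere. NRRL3_43 stood at 449 CPM and at most 1.31 CPM elsewhere. Between them, NRRL3_42 stood at 41.9 CPM in that library, within the 17.1 to 103 CPM of the other wheat bran libraries. The other 2 genes were NRRL3_315, at 63.2 CPM, and NRRL3_8747, at 134 CPM. Compartment 9 of plate A held 2 such genes, NRRL3_59 at 711 CPM and NRRL3_3009 at 80.1 CPM, and the other 7 wheat bran libraries held 0. That ID numbers follow the order of genes on the chromosomes is not stated in the sources used here.

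**Figure D4:**
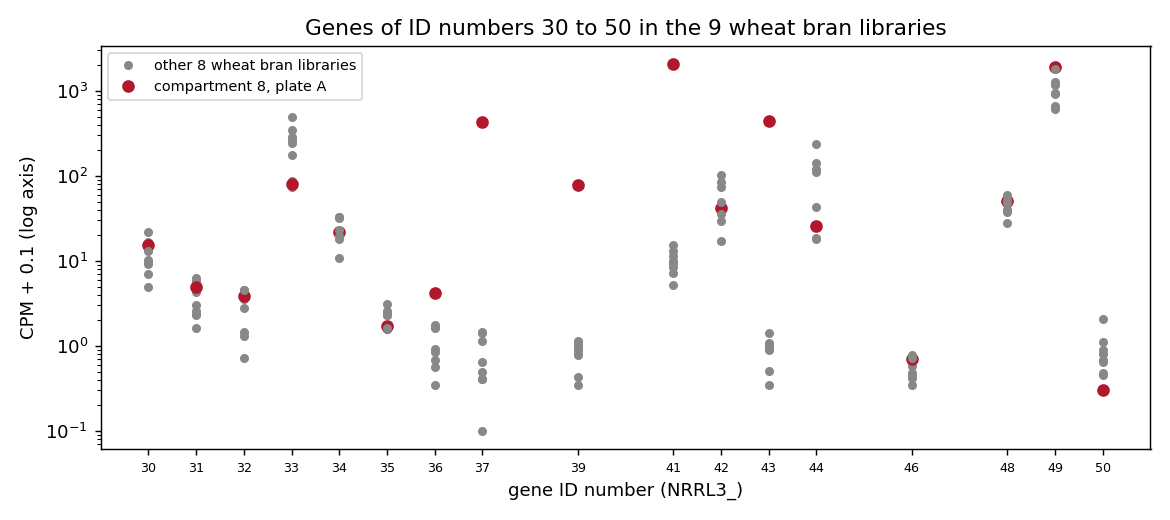
CPM plus 0.1 on a log axis of the tested genes with ID numbers 30 to 50, in compartment 8 of plate A (red) and the other 8 wheat bran libraries (grey). NRRL3_37, NRRL3_39, NRRL3_41 and NRRL3_43 are high in the red library alone, at 77.7 to 2064 CPM, with NRRL3_42 between them inside the grey range.

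The genes called between 9 and 7 were also followed in compartment 8. They were chosen for their distance between 7 and 9, so a median between the 2 is favoured by that choice and supports nothing. The 2006 higher genes had median log2 CPM of 3.83, 4.02 and 3.56 in compartment 7 of plates A, B and C. Their medians were 3.84, 4.33 and 4.13 in compartment 8 and 5.01, 5.20 and 5.36 in compartment 9. The 2327 lower genes had medians of 4.72, 4.21 and 4.85 in compartment 7, 4.59, 3.75 and 3.92 in compartment 8 and 3.05, 2.96 and 2.85 in compartment 9. On plate A compartment 8 was thus near compartment 7 in both lists, while on plate C it lay about midway for the lower genes. Over all genes tested, the medians were 3.37 to 3.49 in compartment 7, 3.17 to 3.52 in compartment 8 and 3.16 to 3.23 in compartment 9.

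**Figure D5:**
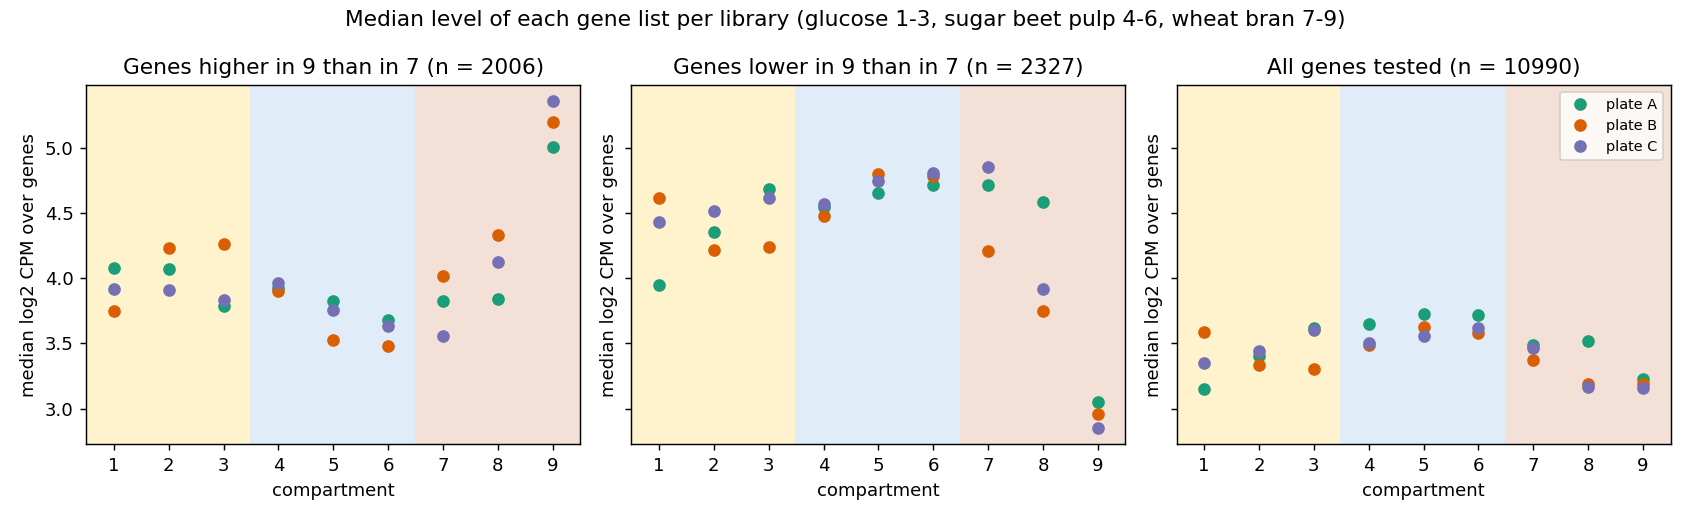
Median log2 CPM per library of the 2006 genes higher and the 2327 genes lower in compartment 9 than in 7, and of all 10990 genes tested; points are plates A, B and C, and shading marks the substrates. The higher genes reach medians of 5.01 to 5.36 in compartment 9 and 3.48 to 4.33 in the other 8 compartments, and the lower genes 2.85 to 3.05 against 3.75 to 4.85.

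Few genes passed a test for a step from 8 to 9 that differed from their step from 7 to 8. This difference of the steps was tested in the same edgeR fit, and 16 of 10990 genes passed (0.146%), with 1107 at an unadjusted p under 0.05. A missed threshold does not show that the steps of a gene were equal. All 16 had a more negative step from 8 to 9. They include NRRL3_2407, with steps of -0.37 and -3.85 (difference -3.48, SE 0.53, adjusted p = 0.0097). They also include NRRL3_37, NRRL3_41 and NRRL3_43, which are high in a single library, as described above. Without any 1 plate the count was 0, with 484 to 1183 genes at an unadjusted p under 0.05. It was also 0 with the wheat bran libraries alone, 10 with limma-voom, 48 without the 20 most abundant genes and 139 with library size alone. Leaving out the compartment 9 library of plate A, B or C gave 4, 66 and 8 genes, so this count is unstable.

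The calls between 9 and 7 were compared with the plate left out of them. From plates B and C, 1756 tested genes were called higher and 2099 lower, and on plate A 88.7% and 89.3% of these had the same sign. From plates A and C, 1728 were called higher and 2126 lower, and on plate B 94.7% and 95.7% had the same sign. From plates A and B, 363 were called higher and 597 lower, and on plate C 97.5% and 99.2% had the same sign. Among all genes, 46.4% to 47.9% were higher and 52.1% to 53.6% lower in compartment 9 on a single plate. The median log2 difference of the called genes on the plate left out was 1.06, 1.16 and 2.33 for higher genes and -1.52, -1.16 and -2.14 for lower genes, for plates A, B and C. The lists differ between these fits, so the medians do not rank the plates.

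The glucose and sugar beet pulp sections gave a contrast whose fold changes do not enter the one between 9 and 7. It is not fully independent, since these libraries come from the same colonies and share the dispersion estimate, filter and plate term of the fit. Counts were summed per plate and section, and glucose was tested against sugar beet pulp in edgeR. Over the 10990 genes of both fits, 484 were higher on glucose (4.4%) and 266 higher on sugar beet pulp (2.42%). Of the 2006 genes higher in compartment 9 than in 7, 235 were higher on glucose (11.7%) and 6 higher on sugar beet pulp (0.299%). Of the 2327 genes lower in compartment 9, 26 were higher on glucose (1.12%) and 119 higher on sugar beet pulp (5.11%). The median log2 difference of glucose over sugar beet pulp was 0.26 for the genes higher in 9 and -0.16 for those lower, against -0.05 over all genes. With compartments 2 and 5 alone, 23.5% of the genes higher in compartment 9 were called higher on glucose, against 10.1% of all 10273 genes with a value in both fits.

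Across the 10990 genes, the log2 fold change from 7 to 9 and that of glucose over sugar beet pulp had a Pearson r of 0.384 and a Spearman rho of 0.352. For the step from 7 to 8 the values were 0.450 and 0.436, and for the step from 8 to 9 they were 0.253 and 0.241. Genes are not independent replicates, and the sections share plates, so these are descriptions. NRRL3_1765 was higher on glucose than on sugar beet pulp, with a log2 fold change of 2.97 (edgeR adjusted p = 0.0140). NRRL3_10559 was lower on glucose, at -2.16 (adjusted p = 0.0158). NRRL3_2407, NRRL3_5487, NRRL3_1945 and NRRL3_9677 had values of -0.30 to 0.17, with adjusted p from 0.55 to 0.93. NRRL3_6303 had a value of 1.19 (adjusted p = 0.063). NRRL3_1234 and NRRL3_2050, described with the most abundant genes, were higher on glucose, at 1.48 each (adjusted p = 0.011 and 0.012). So was NRRL3_1522, at 1.63 (edgeR adjusted p = 0.0035).

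Distances from compartment 9 to the other sections were taken within each plate. The mean root mean square log2 distance was 1.44 to compartment 1, 1.55 to 2 and 1.66 to 3 on glucose, and 1.59 to 4, 1.79 to 5 and 1.80 to 6 on sugar beet pulp. Plates A and C followed this order on glucose. Plate B had the reverse order, with 1.65 to compartment 1, 1.37 to 2 and 1.31 to 3. For compartment 7 the means were 1.08 to 1.24 for glucose and 1.05 to 1.14 for sugar beet pulp. Mean distances from compartment 9 to compartments 7 and 8 were 1.38 and 1.13, but their order against compartment 1 varied by plate. From compartment 9 to glucose compartment 1 the distances were 1.17, 1.65 and 1.51 on plates A, B and C. Compartment 9 was thus nearer to compartment 1 than to 7 on plates A and C, and nearer to 1 than to 8 on plate A. The low depth and uneven composition of its libraries move with these distances, and their part was not tested.

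Of the 20 genes with the highest mean CPM, compartments 7 and 8 shared 18, compartments 8 and 9 shared 12 and compartments 7 and 9 shared 10. Of the 20 in compartment 9, 15 were higher there than in 7, 0 were lower and 5 did not pass, and of the 20 in compartment 7, 5 were higher, 3 lower and 12 did not pass. Over all genes 18.3% were higher and 21.2% lower, and picking genes by their level in compartment 9 favours higher calls there, so these counts are a description. NRRL3_1234 took 4.49%, 3.70% and 2.85% of the counts in compartment 7, 4.28%, 5.15% and 4.28% in 8 and 11.1%, 8.18% and 10.7% in 9. NRRL3_2050 took 2.00%, 3.18% and 1.48% in compartment 7, 1.79%, 4.86% and 3.23% in 8 and 6.55%, 7.31% and 8.51% in 9. For both genes every compartment 9 library lay above all those of 7 and 8. Their log2 fold changes from 7 to 9 were 2.28 and 2.66 (edgeR adjusted p = 0.0084 and 0.0026). Without plate C neither passed (edgeR adjusted p = 0.17 and 0.11). NRRL3_1522 took 2.10%, 2.89% and 2.11% in compartment 7, 2.66%, 3.47% and 2.54% in 8 and 4.46%, 4.02% and 4.61% in 9. Its log2 fold change from 7 to 9 was 1.74 (edgeR adjusted p = 0.0019), and without plate C it did not pass (adjusted p = 0.11). On glucose NRRL3_1522 stood at 42396 to 194345 CPM, against 61650 to 99792 CPM in compartment 9. NRRL3_1627 took 4.64%, 2.80% and 4.17% in compartment 7, 5.12%, 1.92% and 5.55% in 8 and 3.26%, 1.14% and 1.68% in 9. On the TMM scale NRRL3_1627 stood at 41564 ± 13315, 51531 ± 26901 and 38128 ± 21580 CPM in compartments 7, 8 and 9 (SD, n = 3 plates). Its log2 fold change from 7 to 9 was -0.18 (SE 0.55, edgeR adjusted p = 0.82).

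Called genes also occurred in runs of neighbouring ID numbers. Runs of 4 or more consecutive IDs with the same call between 9 and 7 numbered 15 among higher genes, holding 68 genes, and 28 among lower genes, holding 125. Over all 10990 genes tested, 18.3% were called higher and 21.2% lower. At such shares some runs occur without any link between neighbours. The longest run in each direction held 7 genes. In the run from NRRL3_9393 to NRRL3_9399 the mean log2 CPM was 3.57, 4.06 and 3.35 in compartment 7, 3.75, 4.49 and 4.15 in compartment 8 and 4.84, 5.29 and 5.49 in compartment 9. In the run from NRRL3_3586 to NRRL3_3592 it was 4.48, 3.49 and 4.78 in compartment 7, 4.28, 2.89 and 3.52 in compartment 8 and 2.83, 2.02 and 2.27 in compartment 9. Both of these runs moved from 7 to 9 in the called direction on all 3 plates. Their genes were chosen by that call, so this tests nothing. The number of runs was not tested.

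Any difference among the 3 wheat bran compartments was found in 3558 of 10990 genes (32.4%) by the edgeR test with 2 degrees of freedom. The count was 383 without plate C and 2429 without its compartment 9 library alone. No gene switched from 10 or more counts in every library of 1 compartment to 0 counts in every library of the other between 7 and 9, in either direction. Of the 2327 genes lower in compartment 9 than in 7, 17, 21 and 48 had 0 counts in the compartment 9 libraries of plates A, B and C. Over all 10990 genes the numbers were 77, 121 and 297, a similar share.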

How the data were processed

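RNA was sequenced from mycelium of 27 libraries, 9 of them on wheat bran. The table the authors deposited holds raw counts, in whole numbers, for 11846 gene models. The submitters' processing notes name HTSeq and DESeq2 but no role or version. Per the labels' protocols, cDNA was made with a SMARTer kit and sequenced on an Ion Proton. Aligner, build, annotation and strand setting: not given in the sources used here. Where genes overlap or have near-identical copies, their counts are uncertain.

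All 27 libraries entered 1 edgeR 4.0.16 fit in R 4.3.3, with 9 compartment groups, plate as a block, TMM factors, the filterByExpr filter (10990 genes kept), the quasi-likelihood F-test and 16 residual degrees of freedom. P-values are two-sided and Benjamini-Hochberg adjusted within a comparison. SE is the log2 fold change over the square root of F; log2 CPM used a prior count of 2. Section sums were fitted likewise (11563 genes). The plate block rests on the labels, since a plate holds 1 colony. Deviations from compartment means correlated with a mean r of 0.272 over 9 same-plate pairs of wheat bran libraries, from -0.0804 to 0.691, with 7 over 0.1. No plates of a compartment agreed within sampling noise (lowest chi-square per degree of freedom 39.6). DESeq2 1.42.0 and limma 3.58.1 served as alternatives. Gene lists by symbol could not be joined to the IDs and were not analysed here. The libraries, lists and naming rule (at most 2 genes per direction and comparison, and the genes with most counts) were chosen with earlier results of these data known. Per-library values cover counting error and plate differences together, and no molecular identifiers are named.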

Additional observations from a re-analysis of the deposited data

How the results depend on the processing

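Leaving out a plate, or a single compartment 9 library (the latter chosen after seeing the data), gave 960 to 3981 genes between 9 and 7, 155 to 2295 between 9 and 8, and 383 to 3100 among the 3 compartments. The difference of the steps, a test also chosen after seeing the data, went from 16 genes to 0 without any 1 plate. The lowest counts were without plate C, and the cause was not tested. With no replicate block the counts were 4000, 2269 and 3218, and with the wheat bran libraries alone and a replicate block 4272, 2439 and 3416. RLE factors, library size alone, no filter, thinning, leaving out the 20 most abundant genes, limma-voom and DESeq2 kept these 3 counts within 1.5 times of those reported. With library size alone the genes themselves changed. Of its 4891 genes between 9 and 7, 2965 were among the 4333 reported. Between 9 and 8, 1721 of its 2927 genes were among the 2611 reported, and among the 3 compartments 2367 of 3874 were among the 3558. The directions moved with the scaling: RLE factors gave 2210 higher and 2141 lower genes between 9 and 7, DESeq2 2346 and 2281, and library size alone 638 and 4253, against 2006 and 2327. Between 8 and 7, DESeq2 gave 12 genes and every other setting 0. The share of genes higher in 9 that were higher on glucose was 23.5% with compartments 2 and 5 alone, against 11.7%, while the share over all genes was 10.1%, against 4.4%. All 111 alternative values of the 8 passing gene and comparison pairs kept direction and call. For the fits without plate A, B or C this was fixed in advance by the naming rule, so those values support nothing. Values from limma-voom were not taken for named genes. NRRL3_1765, one of the 20 most abundant, had no value where those 20 were left out. Of 56 values for the 4 genes that did not pass, 1 passed, NRRL3_41 with DESeq2. Compartment 9 held the fewest counts, so its low genes are the least precise.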
